A study of Drosophila melanogaster with 11 samples.

Results

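The 35 genes described here encode the machinery of DNA replication and its control. They were chosen by name from the known subunits and regulators, and all 35 were found among the 16034 entries of the count table. Cdc45 stands there as CDC45L. Their RNA was compared in the salivary gland, whose large polytene cells replicate without dividing, and in the wing imaginal disc, whose diploid cells divide. Both tissues came from 3rd instar Drosophila melanogaster larvae kept at 25 C. The wild-type strain was w1118, and the mutant was w;dCap-D3c07081/c07081, homozygous for the c07081 allele of the gene for the condensin II subunit dCap-D3. Each genotype came from a single strain, so loss of dCap-D3 and strain background cannot be told apart in any comparison of genotypes. There were 3 wild-type and 3 mutant salivary libraries, 3 wild-type wing libraries and 2 mutant wing libraries. A salivary sample pooled 50 tissues and a wing sample 150. No label states that replicates are separate cultures. Each p-value therefore covers the spread among these libraries, which may be technical. Neither the labels nor the table separate cell types within a tissue. In such bulk RNA, fewer cells of a type and less RNA per cell cannot be told apart.

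Replication begins where the origin recognition complex (ORC) sits on DNA. Cdc6 and Dup (the fly Cdt1) load the MCM helicase ring there, and geminin holds Dup in check. At S phase the ring becomes an active helicase with Cdc45 and the GINS complex, polymerase alpha-primase starts each strand, and PCNA, placed by its loader, holds the copying polymerase on DNA. Salivary gland cells run the endocycle, in which S phases alternate with gap phases and mitosis is skipped, so that the chromosomes become polytene.

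The libraries held 52483185 to 157639957 counts, with the highest total in wing wild-type replicate 3. Levels are given as CPM, a gene's counts relative to library size, with sizes adjusted by TMM over all 11 libraries together. The salivary libraries were non-directional and the wing libraries directional, so tissue and library kind cannot be told apart in any comparison of tissues. Cap-D3, the mutated gene, went from 6.84 ± 0.903 CPM in wild-type glands to 0.0858 ± 0.011 in mutant glands (SD, n = 3 and 3). In wing discs it stood at 12.3 ± 5.08 CPM (SD, n = 3) and 1.71 ± 0.157 CPM (SD, n = 2). The 10 salivary gland markers summed to 377000 to 623000 CPM in gland libraries and to 109 to 436 in wing libraries. The 10 wing disc markers summed to 357 to 845 CPM in wing libraries and to 24.4 to 48.7 in gland libraries. Fat body markers were abundant in the gland libraries, at a summed 99000 to 205000 CPM.

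**Figure D1:**
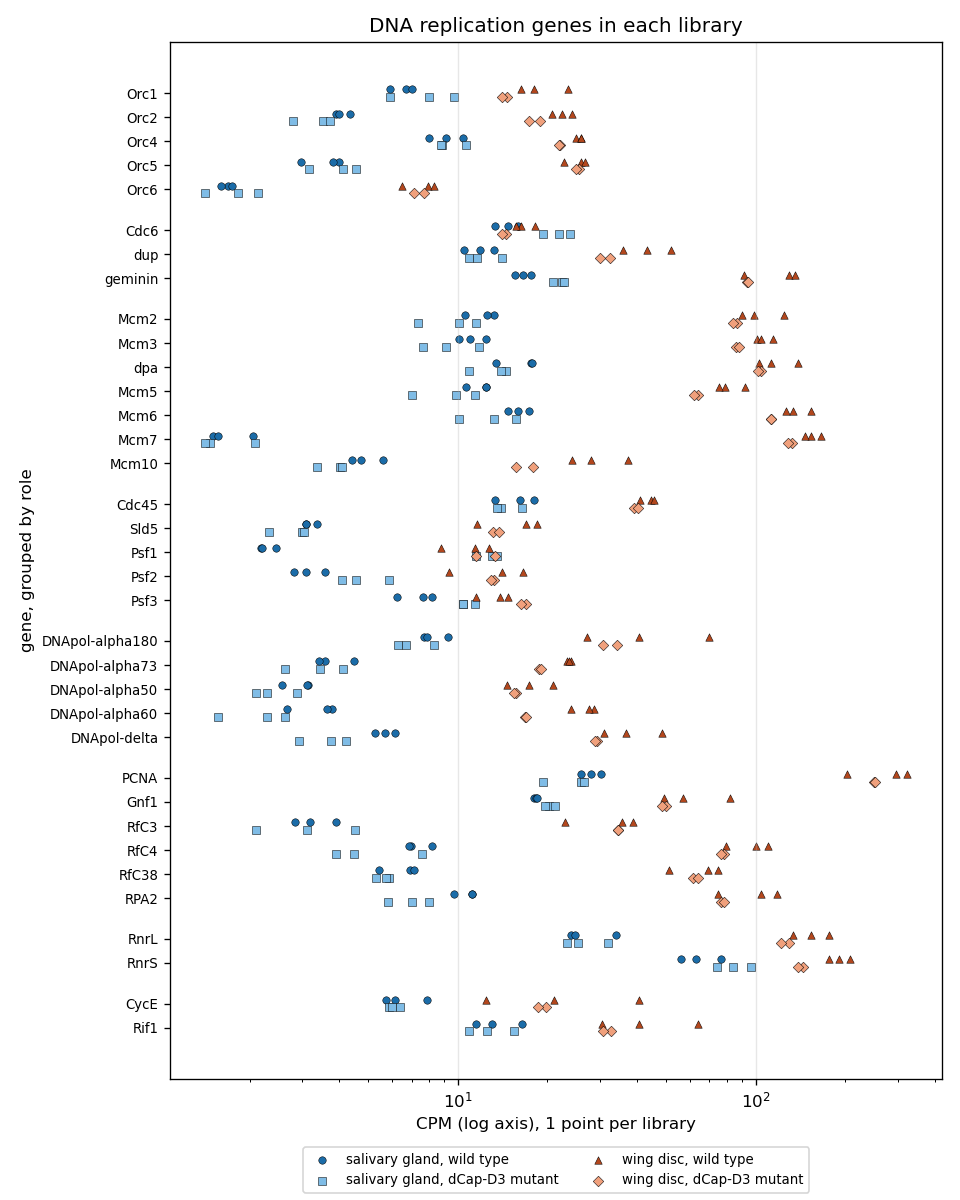
Level of each of the 35 replication genes (CPM on a log axis) in each of the 11 libraries, with genes grouped by role and 1 point per library. Salivary points lie to the left of wing points for nearly every gene, with Cdc6 and, in mutant glands, Psf1 as exceptions.

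Replication transcripts were lower in the wild-type salivary gland than in the wild-type wing disc for 34 of the 35 genes. None was higher in edgeR's or DESeq2's test or at an unadjusted p under 0.05. Over all 10835 genes tested, 42.4% were called lower and 32.7% higher. A gene counts as called where edgeR's quasi-likelihood test gave it a p, adjusted by Benjamini and Hochberg's method, no higher than 0.05. Log2 fold changes are printed ± their standard error. The 35 genes had a median log2 fold change of -2.58, against -0.31 for all genes. The exception was Cdc6. Summed over the 35 genes, wild-type glands held 382, 355 and 420 CPM and wild-type discs 2310, 2290 and 2330 CPM. For 34 genes every gland library lay below every disc library, where 43.0% of all genes did so. Scaling by total counts moved the median of all genes to -1.48 and that of the 35 genes to -3.75. Relative to all genes, the 35 genes stood at -2.26 with the main scaling, -2.28 with size factors (RLE) and -2.27 with total counts.

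The roles differed in how far they lay below the disc. The MCM genes with Mcm10 had a median log2 fold change of -3.10, and the clamp, clamp loader and RPA genes -3.28. The polymerase genes stood at -2.63, ORC at -2.18, Cdc45 with GINS at -2.08, and nucleotide supply at -2.02. The median of the licensing factors and their inhibitor was -1.89, and that of the S phase control genes CycE and Rif1 was -1.82. Differences between roles were not tested.

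The 5 measured ORC subunits, which mark origins, were all lower in the wild-type gland. Orc5 stood at 4.0, 2.97 and 3.82 CPM in wild-type glands and at 25.9, 26.8 and 22.8 CPM in wild-type discs, with a log2 fold change of -2.81 ± 0.18 (adjusted p = 2.01e-06). Orc2 (-2.46 ± 0.15) and Orc6 (-2.18 ± 0.21) lay close to the median of the 35 genes. The largest subunit, Orc1, is a known target of E2F and is degraded and remade in each cycle. It stood at 6.68, 5.92 and 7.01 CPM in wild-type glands and at 18, 16.3 and 23.4 CPM in discs, a log2 fold change of -1.56 ± 0.21 (adjusted p = 0.000114). Orc4 was 2.79-fold lower (-1.48 ± 0.14).

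Of the licensing genes, Cdc6 stood apart. It stood at 14.8, 13.3 and 15.9 CPM in wild-type glands and at 16.3, 15.7 and 18.2 CPM in wild-type discs, and the ranges overlapped. Its log2 fold change of -0.19 ± 0.13 did not pass the test (adjusted p = 0.203), and an interval of 2 standard errors either side ran from -0.45 to 0.07. The partner loader dup stood at 11.9, 10.5 and 13.2 CPM in glands and at 43.3, 36.0 and 52.1 CPM in discs (-1.89 ± 0.18, adjusted p = 1.27e-05). Its inhibitor geminin showed a wider gap, with 17.6, 15.6 and 16.5 CPM in glands and 129, 136 and 91.4 CPM in discs (-2.84 ± 0.17, adjusted p = 1.73e-06). Total-count scaling, which lowers every gland value, brought a call for Cdc6 too, so that all 35 genes were then lower.

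The 6 subunits of the MCM ring, the replicative helicase, were all lower in the gland. Mcm2 stood at 13.2, 10.6 and 12.5 CPM in wild-type glands and at 98.7, 89.9 and 125 CPM in discs (-3.11 ± 0.22, adjusted p = 2.55e-06). Mcm3, dpa (the fly Mcm4), Mcm5 and Mcm6 had log2 fold changes of -3.25 to -2.79. These subunits thus differed between tissues by 6.94-fold to 9.50-fold. Mcm10, which helps to start the helicase, was 6.08-fold lower (-2.60 ± 0.19).

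Mcm7 had the widest gap of the 35 genes. It stood at 2.06, 1.51 and 1.57 CPM in wild-type glands, from 83, 60 and 60 counts, and at 153, 147 and 166 CPM in wild-type discs (-6.50 ± 0.23, adjusted p = 1.88e-07). Mcm7 (FBgn0020633, chromosome arm 3L, 8891596 to 8894310, plus strand, build BDGP6) shares 81.7% of its exon bases with the antisense RNA gene asRNA:CR45871 on the other strand. Among all genes with more than 80% of their exon bases under an exon of the other strand, 126 in number, the median log2 fold change between the wild-type tissues was -8.72. It was -0.05 among the 6951 genes with no such overlap. Genes with up to 10% overlap had a median of -0.52 (2129 genes), and those above 10% and up to 50% one of -0.69 (976 genes). The gene for dUTPase, overlapped over 100% of its exon bases, had 0 counts in every gland library and 24599 to 54355 in wing libraries. The fold of Mcm7 therefore cannot be told apart from the way reads of overlapping genes were counted in the non-directional gland libraries. No other member lay above 34.9% overlap, and the part of overlap in the folds of those members was not tested. There was no overlap in 21 of the 35. Of those 21, 20 were lower in the wild-type gland, with a median log2 fold change of -2.63.

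**Figure D2:**
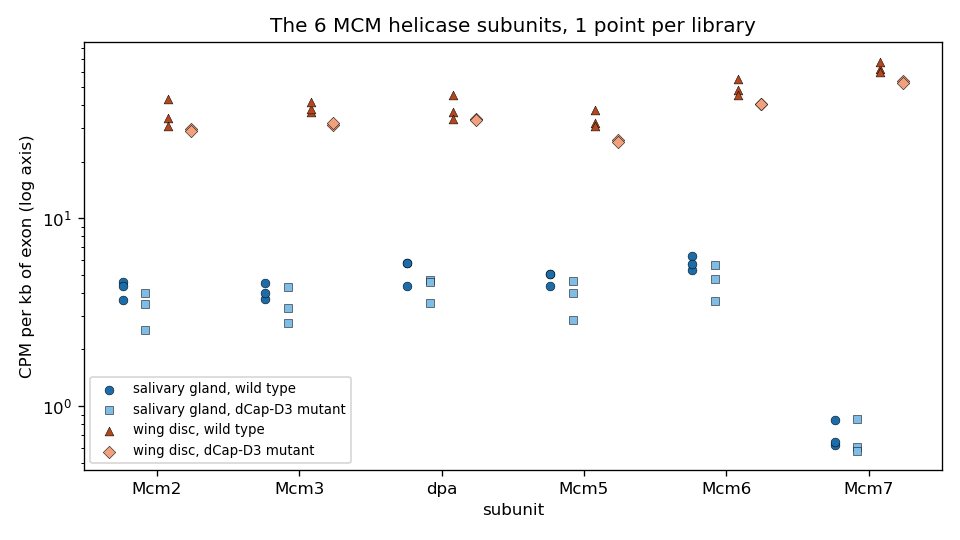
Level of each MCM subunit per kb of exon (CPM per kb, log axis) in the 11 libraries, 1 point per library. Mcm2 to Mcm6 stay together within each group, while Mcm7 lies below the other subunits in gland libraries and above them in disc libraries. The gland level of Mcm7 cannot be told apart from the counting of overlapping genes.

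Per kb of exon, Mcm2, Mcm3, dpa, Mcm5 and Mcm6 kept levels within 1.41-fold of each other in wild-type glands and within 1.47-fold in wild-type discs. Mcm6 was the most abundant of these in every group, at 5.75 ± 0.474 CPM per kb in wild-type glands and 49.3 ± 4.84 in wild-type discs (SD, n = 3 each). Mcm7 stood at 0.699 ± 0.123 CPM per kb in wild-type glands and at 63.5 ± 3.98 in wild-type discs (SD, n = 3 each). It was thus the lowest of all 35 genes in the gland and ranked 6 of 35 in the disc. Like its fold, its gland level and rank cannot be told apart from the counting of overlapping genes.

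Cdc45 and the GINS subunits, which turn the MCM ring into a moving helicase, differed less. Cdc45 stood at 16.2, 13.3 and 18 CPM in wild-type glands and at 44.6, 40.9 and 45.5 CPM in discs (-1.46 ± 0.15, adjusted p = 1.95e-05). The GINS genes Sld5 (-2.30 ± 0.20), Psf1 (-2.26 ± 0.17) and Psf2 (-2.08 ± 0.24) were lower by similar amounts. Psf3 had the smallest called difference of the 35 genes, at -0.87 ± 0.15 (adjusted p = 0.000587), and 34.9% of its exon bases lie under CG17841 on the other strand.

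The 4 genes of polymerase alpha-primase, which lays the RNA-DNA primers, were lower in the wild-type gland by 5.53-fold to 7.96-fold. In the gland they stood within 1.07-fold of each other per kb of exon, from 1.79 for the catalytic subunit gene DNApol-alpha180 to 1.92 CPM per kb for the large primase subunit gene DNApol-alpha60. In the disc they spread over 1.54-fold. DNApol-delta, the catalytic subunit of a main replicative polymerase, was 6.77-fold lower (-2.76 ± 0.20, adjusted p = 3.30e-06).

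The sliding clamp and its loader showed some of the widest gaps. PCNA stood at 28.1, 26.0 and 30.3 CPM in wild-type glands and at 295, 322 and 202 CPM in wild-type discs (-3.28 ± 0.22, adjusted p = 2.22e-06). The lowest disc value was that of replicate 3, and it was still far above every gland value. The clamp loader genes RfC4 (-3.72 ± 0.27), RfC38 (-3.32 ± 0.19) and RfC3 (-3.29 ± 0.31) were 9.79-fold to 13.1-fold lower. The exons of RfC38 lie to 25.2% under Nup160. Gnf1, which encodes the large subunit of the same loader, was 3.45-fold lower (-1.79 ± 0.19, adjusted p = 2.27e-05). The single-strand binding subunit gene RPA2 stood at 11.2, 9.68 and 11.2 CPM in glands and at 104, 118 and 75.0 CPM in discs (-3.21 ± 0.21).

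The subunits of ribonucleotide reductase, which makes deoxynucleotides, differed unequally. RnrL was 5.58-fold lower in the wild-type gland (-2.48 ± 0.20) and RnrS 2.94-fold lower (-1.56 ± 0.17). RnrS stood at 56.2, 63.3 and 76.3 CPM in wild-type glands and at 191, 208 and 177 CPM in discs. Per kb of exon it was the most abundant of the 35 genes in the gland, at 41.0 ± 6.41 CPM per kb, and the next after PCNA in the disc, at 120 ± 9.83 (SD, n = 3 each). CycE encodes the cyclin whose rise and fall with Cdk2 drives endocycle S phases. It stood at 7.87, 5.75 and 6.18 CPM in glands and at 21.1, 12.4 and 40.7 CPM in discs (-1.91 ± 0.37, adjusted p = 0.00119). The disc values of CycE spread by over 3-fold, with replicate 3 the highest. Rif1, which slows replication of late domains in polytene cells, lay lower too, with a log2 fold change of -1.73 ± 0.28 (adjusted p = 0.000384).

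**Figure D3:**
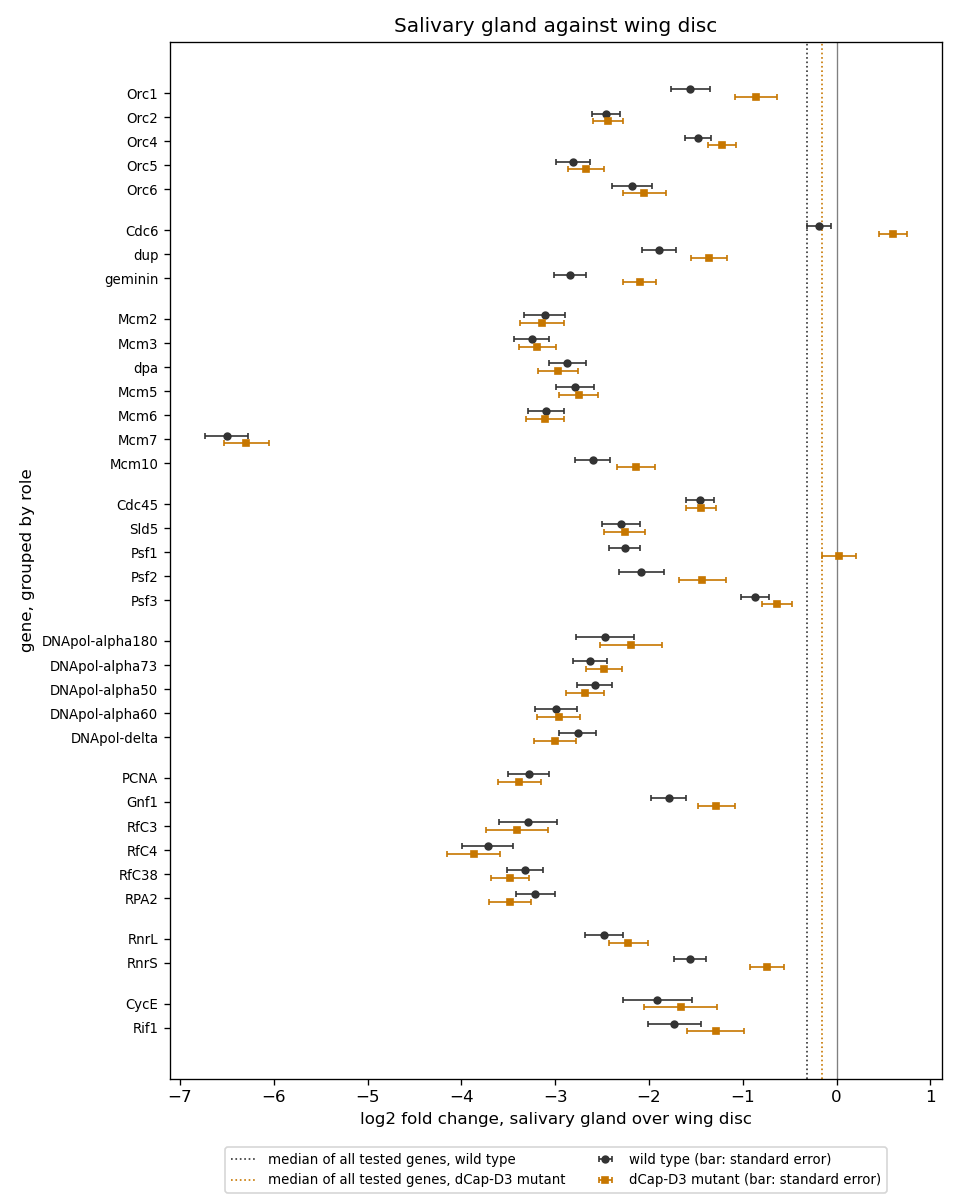
Log2 fold change of salivary gland over wing disc for each replication gene, grouped by role, in wild type (circles) and in the dCap-D3 mutant (squares), with standard errors as bars. Dotted lines mark the medians of all tested genes at -0.31 and -0.15, and Cdc6 and Psf1 are the genes whose mutant values lie at or above 0.

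In the dCap-D3 mutant the tissues were compared in separate libraries, but in the same fit of all 11 libraries. The wild-type and mutant comparisons shared 1 estimate of the spread and are not independent. In the mutant 33 of the 35 genes were lower in the gland and 1 was higher, where 38.2% of all genes were called lower and 31.1% higher. The median log2 fold change was -2.26, against -0.15 for all genes. The gene that was higher was Cdc6, with 19.3, 23.8 and 21.9 CPM in mutant glands and 14.5 and 14.1 CPM in mutant discs (0.60 ± 0.15, adjusted p = 0.00487). All mutant gland values of Cdc6 lay above both disc values, as did those of 39.2% of all genes. With total-count scaling its direction turned (-0.62), and the call was lost without either wing mutant replicate, at an adjusted p of 0.0502 and 0.0637. The gene that passed in neither direction was Psf1 (0.03 ± 0.18, adjusted p = 0.900). For Psf1 an interval of 2 standard errors either side ran from -0.34 to 0.40, which leaves out its wild-type difference of -2.26. Mcm2 (-3.14 ± 0.23) and PCNA (-3.38 ± 0.23) stood close to their wild-type values. For 33 genes every mutant gland library lay below both disc libraries, where 47.2% of all genes did so.

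The next question was whether these genes differed between mutant and wild-type salivary glands. In the salivary gland 2 of the 35 genes rose in the mutant, Psf1 and Cdc6, and 1 fell, RPA2. Of all 9004 genes tested, 5.71% rose and 4.95% fell, so the count for the 35 genes was near the background. Their median log2 fold change was -0.18, against -0.04 for all genes. The summed level of the 35 genes was 382, 355 and 420 CPM in wild-type glands and 398, 438 and 372 CPM in mutant glands, and these ranges overlapped. In 6 genes every mutant gland lay above every wild-type gland and in 6 genes below, where 20.3% and 15.4% of all genes did so.

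Psf1 carried the main change. This GINS subunit gene (FBgn0035194, chromosome arm 3L, 1246986 to 1247677, minus strand, build BDGP6) stood at 2.46, 2.19 and 2.20 CPM in wild-type glands, from 99, 87 and 84 counts. In mutant glands it stood at 11.5, 13.0 and 13.5 CPM, from 450, 628 and 553 counts. The genotypes did not overlap. Wing discs held 11.4, 12.7 and 8.77 CPM in wild type and 11.5 and 13.3 CPM in the mutant, so mutant gland replicates 1 and 2 lay within the range of the disc libraries and replicate 3 above it. The rise was 5.30-fold (log2 fold change 2.41 ± 0.14, adjusted p = 0.000624). It passed the test without any 1 of the 6 libraries, with adjusted p values up to 0.00833. In the authors' deposited table the log2 fold change of Psf1 was 2.37 with a false discovery rate of 1.44e-08, and Psf1 was the 1 member below 0.05 in the salivary comparison. Psf1 has no exon overlap on the other strand. The next gene along the chromosome, Sac1, named here after its values were seen, stood at a log2 fold change of 0.10 ± 0.13 (adjusted p = 0.620). Other neighbours are not given here, so this value does not show whether the change was confined to Psf1.

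The other GINS genes did not move by the same amount. Psf2 stood at 3.10, 3.58 and 2.83 CPM in wild-type glands and at 5.89, 4.55 and 4.09 CPM in mutant glands (0.54 ± 0.21, adjusted p = 0.155). Psf3 stood at 7.65, 6.23 and 8.19 CPM in wild-type glands and at 11.4, 10.4 and 10.4 CPM in mutant glands (0.48 ± 0.12, adjusted p = 0.0591). For both genes all mutant values were higher, but neither passed the test. Sld5 stood at 3.10, 3.38 and 3.09 CPM in wild-type glands and at 3.01, 3.05 and 2.33 CPM in mutant glands (-0.26 ± 0.20, adjusted p = 0.423). All mutant values of Sld5 were lower, and it did not pass. DESeq2 called Psf3 (adjusted p = 0.00658) as well as Psf1, and edgeR with RLE size factors also called Psf3 (adjusted p = 0.0492). Per kb of exon the 4 subunits stood within 1.34-fold of each other in wild-type glands, from 3.09 to 4.13 CPM per kb. The lowest was Psf3, 34.9% of whose exon bases lie under CG17841 on the other strand. Its gland level, and so this range, cannot be told apart from the counting of overlapping genes. In mutant glands the most abundant subunit exceeded the least by 5.07-fold, with Psf1 at 18.3 ± 1.56 and Sld5 at 3.62 ± 0.527 CPM per kb (SD, n = 3 each). In wild-type discs the range was 3.60-fold, from Psf3 to Sld5.

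**Figure D4:**
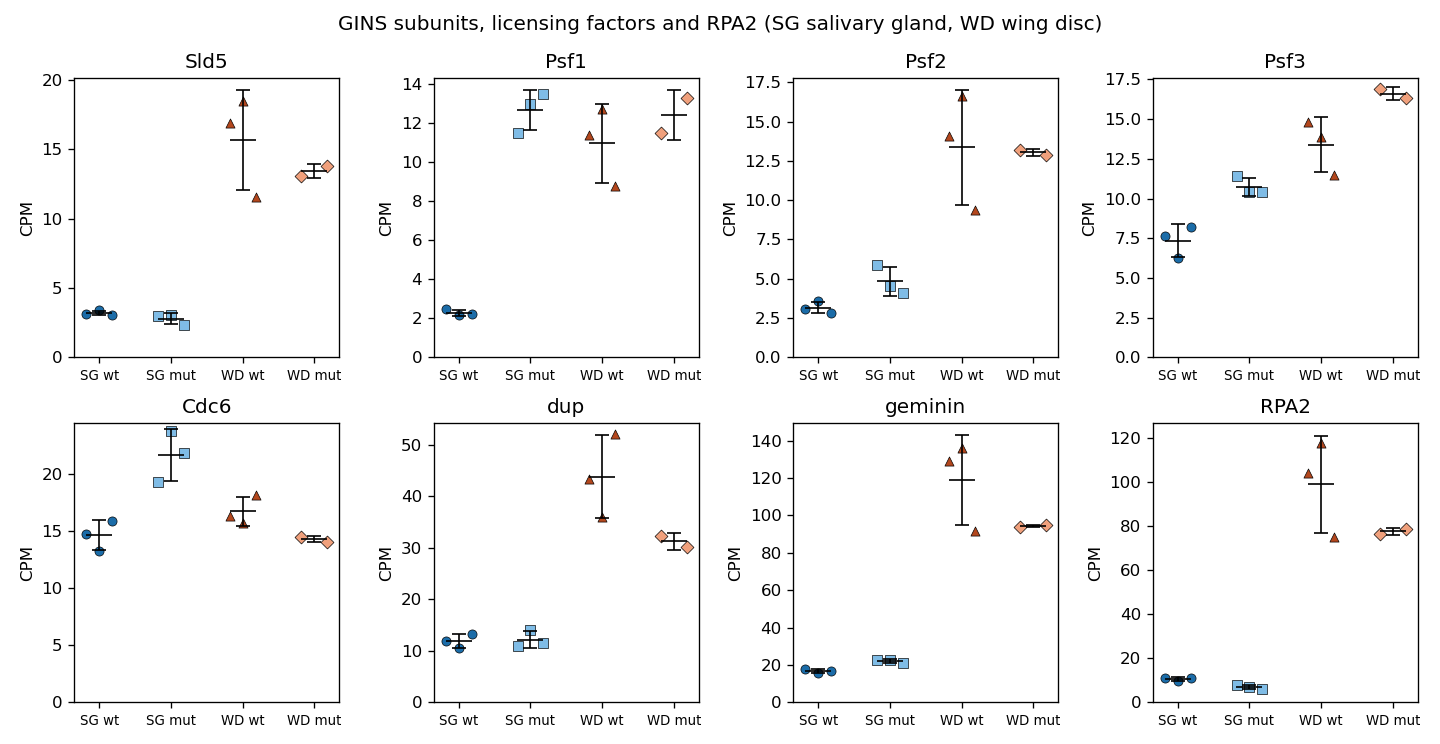
Level in CPM of the 4 GINS subunits, the licensing genes Cdc6, dup and geminin, and RPA2, with 1 point per library, the group mean as a horizontal line and the SD as a bar. Mutant salivary glands (SG mut) lie above wild-type glands (SG wt) for Psf1, Psf2, Psf3, Cdc6 and geminin and below them for Sld5 and RPA2. Of these only Psf1, Cdc6 and RPA2 passed edgeR's test.

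Cdc6 (FBgn0035918, chromosome arm 3L, 8631509 to 8634069, minus strand) rose 1.41-fold in mutant glands (0.50 ± 0.11, adjusted p = 0.0379). It went from 14.8, 13.3 and 15.9 CPM to 19.3, 23.8 and 21.9 CPM, with no overlap. The call held without mutant replicate 1 and was lost without each of the other 5 libraries. Leaving out wild-type replicate 1, 3 or 2 gave an adjusted p of 0.0767, 0.0937 and 0.130, and leaving out mutant replicate 2 or 3 gave 0.0881 and 0.104. It was also lost with upper-quartile scaling (0.0670) and total-count scaling (0.0506). The authors' deposited table gave Cdc6 a log2 fold change of 0.45 and a false discovery rate of 0.539. Geminin stood at 17.6, 15.6 and 16.5 CPM in wild-type glands and at 22.4, 22.7 and 20.9 CPM in mutant glands. All mutant values were higher, but the log2 fold change of 0.34 ± 0.09 did not pass (adjusted p = 0.0683). For dup the log2 fold change was -0.02 ± 0.13 (adjusted p = 0.933).

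RPA2 (FBgn0032906, chromosome arm 2L, 20924975 to 20926147, minus strand) fell in mutant glands, from 11.2, 9.68 and 11.2 CPM to 8.03, 7.0 and 5.83 CPM. The ranges did not overlap, and the log2 fold change was -0.69 ± 0.15 (adjusted p = 0.0374). This call held without mutant replicate 1 and ended without each of the other libraries. Leaving out wild-type replicate 2, 3 or 1 gave an adjusted p of 0.0861, 0.0974 and 0.0984, and leaving out mutant replicate 3 or 2 gave 0.129 and 0.152. DNApol-delta stood at 6.16, 5.27 and 5.71 CPM in wild-type glands and at 4.23, 3.74 and 2.94 CPM in mutant glands, again without overlap. Its log2 fold change of -0.72 ± 0.18 did not pass (adjusted p = 0.0586), although DESeq2 called it (adjusted p = 0.00907).

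None of the 7 genes of the MCM group passed edgeR's or DESeq2's test in the salivary comparison, although all had log2 fold changes below 0, from -0.42 to -0.11. At an unadjusted p under 0.05 there was 1, Mcm10. The 5 polymerase genes likewise lay below 0, from -0.72 to -0.23, with 0 calls in edgeR and 2 at an unadjusted p under 0.05. Mutant replicate 3 gave the lowest value of the 6 gland libraries for Mcm2 (7.34 CPM), Mcm5 (7.0), dpa (10.9) and PCNA (19.4). In gland libraries the mitotic list, whose genes are used by dividing cells, had totals of 227, 218 and 184 CPM in the wild-type replicates and of 221, 144 and 124 CPM in the mutant ones. Markers of other imaginal discs and the imaginal ring, 8 of 8 measured, summed to 94.6, 94.5 and 67.1 CPM in wild-type glands and to 66.8, 44.5 and 50.7 in mutant glands. Of these 8, 1 was called lower and 0 higher, and 5 were lower at an unadjusted p under 0.05. Their median log2 fold change was -1.47, against -0.04 for all genes. Wing disc markers, 10 of 10 measured, summed to 48.7, 38.4 and 42.5 CPM in wild-type glands and to 40.4, 24.4 and 29.6 in mutant glands. Of these 10, 0 were called and 4 were lower at an unadjusted p under 0.05, with a median log2 fold change of -0.97. Of their defining genes, 1 was at 0 counts, in mutant replicate 3. Tracheal markers, 4 of 4 measured, summed to 110, 103 and 102 CPM in wild-type glands and to 81.8, 80.7 and 72.1 in mutant glands, without overlap, and 2 of the 4 were called lower. Fat body markers, 7 of 7 measured, came to 149000, 99000 and 147000 CPM in wild-type glands and to 205000, 132000 and 191000 in mutant glands. These ranges overlapped, and 2 of the 7 were called higher, with a median log2 fold change of 0.47. Of the 10 salivary gland markers 2 were called lower, of the 6 hemocyte markers 1 higher and 2 lower, and of the 6 muscle markers 1 lower. The part of such cells in the values of the replication genes, higher or lower, was not tested. Gut markers reached totals of 1110 and 10100 CPM in wild-type replicates 1 and 2 and at most 4.63 CPM in the other gland libraries.

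In the wing disc none of the 35 genes passed edgeR's test in the comparison of genotypes, where 0.32% of 9699 tested genes rose and 0.165% fell. Cap-D3, the mutated gene, did not pass there either (-2.75 ± 0.37, adjusted p = 0.0912), although its mutant values lay below all wild-type values. The lack of a call in this test therefore does not show that a gene was unchanged. At an unadjusted p under 0.05 there were 2 members, and DESeq2 called 1, DNApol-alpha60 (adjusted p = 0.0428). Their median log2 fold change was -0.22, against -0.03 for all genes, and 28 of the 35 lay below 0. In 18 genes both mutant libraries lay below all 3 wild-type libraries and in 1 gene above, where 15.0% and 10.8% of all genes did so. Mcm10 stood at 28.1, 24.2 and 37.4 CPM in wild-type discs and at 17.9 and 15.7 CPM in mutant discs (-0.75 ± 0.21, adjusted p = 0.321). DNApol-alpha60 stood at 28.7, 27.6 and 24.0 CPM in wild-type discs and at 16.8 and 16.9 CPM in mutant discs (-0.60 ± 0.19, adjusted p = 0.375). Neither overlapped between genotypes. The authors' deposited table held both with a false discovery rate below 0.05, at a log2 fold change of -0.70 (0.0140) for Mcm10 and -0.63 (0.0413) for DNApol-alpha60, and no other member in that tissue. Exons of Mcm10 lie to 13.0% under Ret on the other strand.

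Wing wild-type replicate 3, labelled library 59 where its companions are libraries 28 and 29, stood apart along gene length. Across the 35 genes, the log2 ratio of this library to the mean of the other 2 rose with exon length, with a Spearman rho of 0.95. For replicate 1 the same rho was -0.82 and for replicate 2 -0.95. Over 9345 genes the 3 values were 0.82, -0.43 and -0.75, so the 35 genes followed the rest of the transcriptome. The 9 members shorter than 1.5 kb had a median of -0.56 in replicate 3, with a range of -0.71 to -0.32. The 8 members longer than 3 kb had a median of 0.57, with a range of 0.37 to 1.28. The short genes are those of PCNA, geminin, RPA2, RfC3, RfC4, Orc6, Sld5, Psf1 and Psf2, and the long ones include CycE, Rif1 and DNApol-alpha180. The ratios share the libraries of 1 group, so these correlations are not independent of each other.

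**Figure D5:**
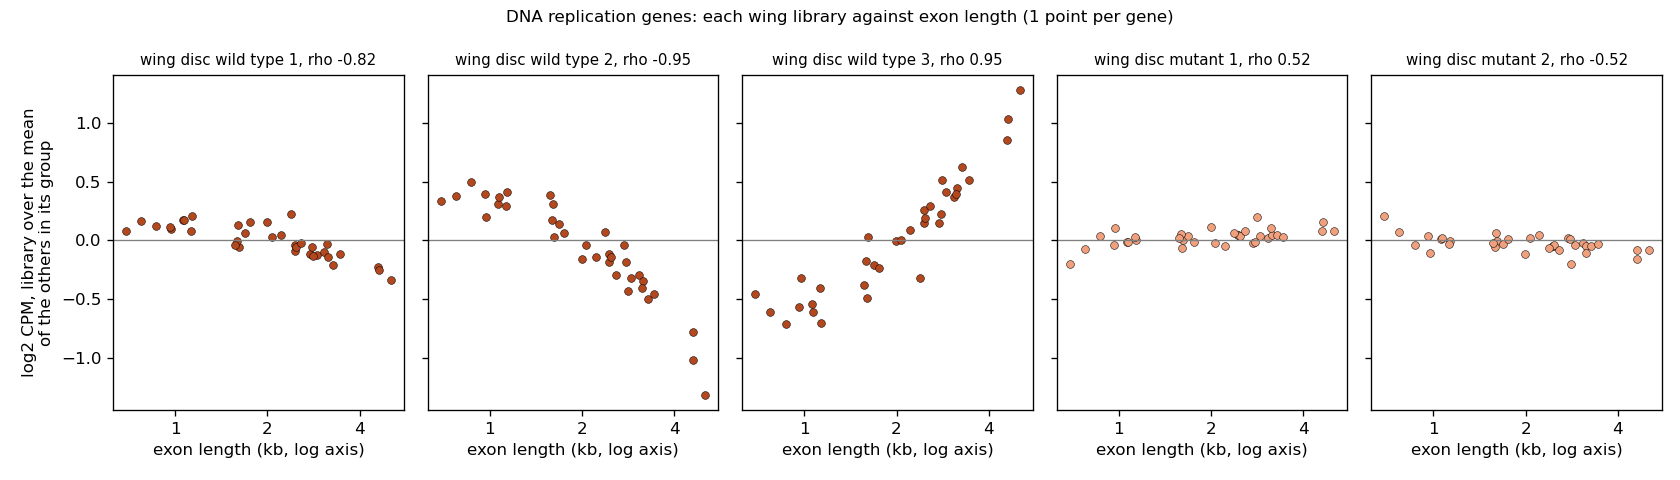
Log2 ratio of each wing library to the mean of the other libraries of its group, for each of the 35 replication genes, against exon length in kb on a log axis, with 1 point per gene. The points climb from short to long genes in wild-type replicate 3 (rho 0.95), fall in replicate 2 (rho -0.95) and stay within 0.204 of 0 in the mutant libraries.

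The wing comparison of genotypes followed exon length with a rho of -0.51 over the 35 genes. Without wild-type replicate 3 this rho was 0.32, and 32 of the 35 genes then lay below 0, with a median of -0.21. No member passed in that fit either, and the lowest adjusted p was 0.0965, for DNApol-alpha60. Against wild-type replicates 1 and 2 alone, both mutant libraries were lower in 28 of the 35 genes and higher in 1, where 28.9% and 22.5% of all genes lay so. PCNA is an example. Its wild-type values were 295, 322 and 202 CPM and its mutant values 249 and 252 CPM, so the mutant lay between replicate 3 and the other 2. The sources used here do not state whether library 59 was prepared apart from the others, and its part in the wing differences beyond these values was not tested.

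Whether the genotype difference differed between tissues was tested with an interaction term over all 11 libraries. A positive estimate means that the log2 fold change of mutant over wild type was higher in the gland than in the disc, and a negative one lower. Of the 35 genes, 1 passed with a positive estimate and 0 with a negative one, where 0.545% and 0.314% of 10835 genes did so. The negative count was also 0 in DESeq2 and at an unadjusted p under 0.05. It was Psf1 (2.29 ± 0.26, adjusted p = 0.00706), whose wing log2 fold change was 0.25 ± 0.25 (adjusted p = 1.0). Without wing mutant replicate 1 or 2, which leaves 1 mutant disc library assumed to vary like the other groups, its adjusted p was 0.0620 and 0.0534. The estimates in those fits were 2.22 and 2.42. Cdc6 (0.79 ± 0.20, adjusted p = 0.112), geminin (0.74 ± 0.25, adjusted p = 0.234) and RnrS (0.82 ± 0.25, adjusted p = 0.185) had the next largest estimates with small errors, and did not pass. Geminin passed without wing wild-type replicate 3 (0.87 ± 0.14, adjusted p = 0.0322). DESeq2 called Cdc6 (adjusted p = 0.000228) and RnrS (0.0475) besides Psf1. The median of the 35 interaction estimates was 0.14, equal to that of all genes.

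The order of levels per kb was much the same in both genotypes of a tissue and less so between tissues. As a description over 35 genes, with libraries of a group averaged, Spearman's rho of the level per kb was 0.98 between wing genotypes and 0.91 between gland genotypes. It was 0.68 between wild-type gland and wild-type disc. RnrS, PCNA and geminin held the top 3 places in all 4 groups. CycE ranked 33 to 35 in every group, at 1.31 CPM per kb in wild-type glands and 4.90 in wild-type discs. Cdc6 ranked 8 in wild-type glands and 32 in wild-type discs, and Psf1 moved from 20 in wild-type glands to 4 in mutant glands. Neighbours in this order often did not differ beyond their spread, as for the polymerase alpha-primase genes at ranks 27 to 30 in the wild-type gland.

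Other genes of the pathway were taken from lists chosen by role. Their counts between wild-type tissues stand beside the 42.4% of all genes called lower, the 32.7% called higher and the median of -0.31 over all genes. Of 21 other replication genes, 18 were lower in the wild-type gland and 0 higher in edgeR, with a median of -2.15. At an unadjusted p under 0.05 there were 0 higher, and DESeq2 called 1. They included the flap endonuclease gene Fen1 (-3.28 ± 0.15, adjusted p = 7.25e-07) and the ligase gene DNA-ligI (-3.03 ± 0.15, adjusted p = 8.32e-07). The topoisomerase gene Top1 (0.60 ± 0.38), chif (0.05 ± 0.45), which encodes the activator of the Cdc7 kinase, and the kinase gene l(1)G0148 itself (-0.25 ± 0.24) did not pass. All 6 chromatin assembly genes were lower, with a median of -2.12. Of the 5 other nucleotide supply genes, dUTPase has the exon overlap and the 0 gland counts described above, and its fold likewise cannot be told apart from the counting of overlapping genes. The other 4 were lower, with log2 fold changes from -2.50 to -1.48. Among 13 regulators of S phase entry 10 were lower and 1 was higher. The higher one was E2f1 (1.17 ± 0.34, adjusted p = 0.0110), the transcription factor that switches on many S phase genes. Of 7 endocycle regulators 4 were lower and 2 higher. The higher ones were peb (5.05 ± 0.54, adjusted p = 2.84e-05), which encodes the zinc finger factor Hindsight, and rap (0.54 ± 0.17, adjusted p = 0.0159), which encodes the APC/C activator Fzr. E2f1 and rap were named after their values were seen. Of 32 genes of the mitotic cycle 31 were lower, with a median of -3.76 where the 35 replication genes had -2.58. That median was -4.56 in the mutant, where the replication genes had -2.26.

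In mutant glands 2 of the 21 other replication genes rose and 2 fell, where 5.71% of all genes rose and 4.95% fell. The gene l(1)G0148, which encodes the Cdc7 kinase that fires licensed origins, rose from 12.9, 10 and 12.2 CPM to 42.3, 66.9 and 58.1 CPM. All mutant values lay above all wild-type values and above the wing libraries, which held 10.1 to 18.2 CPM. The log2 fold change was 2.19 ± 0.20 (adjusted p = 0.00277), and it passed without any 1 of the 6 gland libraries, at up to 0.0193. Its interaction with tissue was 2.39 ± 0.37 (adjusted p = 0.0228). That interaction passed without 4 of the 11 libraries in turn and ended without the others, with adjusted p values between 0.0512 and 0.218. The alternative clamp loader gene cutlet rose from 3.23, 3.07 and 4.19 CPM to 8.31, 8.64 and 7.47 CPM (1.16 ± 0.14, adjusted p = 0.00701). It passed without any 1 library, at up to 0.0467. The PCNA unloader gene elg1 (-0.80 ± 0.14, adjusted p = 0.0220) and the polymerase delta subunit gene Pol32 (-0.73 ± 0.13, adjusted p = 0.0237) fell. Without mutant replicate 3 they reached 0.104 and 0.116, and both also ended without mutant replicate 2, wild-type replicate 1 or wild-type replicate 3, and Pol32 without wild-type replicate 2. Total-count scaling ended both calls (0.0536 and 0.0740), and the fit of all 11 libraries ended that of elg1 (0.165).

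Of the 13 regulators of S phase entry 1 rose and 2 fell in mutant glands, beside the same 5.71% and 4.95% of all genes. The Cdk inhibitor gene dap fell (-0.77 ± 0.13, adjusted p = 0.0198), as did Cdk2 (-0.50 ± 0.12, adjusted p = 0.0456), whose exons lie to 43.9% under CG17267, and CycD rose (0.36 ± 0.08, adjusted p = 0.0435). Cdk2 lost its call without any 1 gland library, at up to 0.161 without mutant replicate 3. The calls of dap and CycD held without mutant replicate 1 and were lost without each of the others, at up to 0.0965 for dap without mutant replicate 3 and up to 0.134 for CycD without wild-type replicate 2. CycD also lost its call with upper-quartile scaling (0.0954), total-count scaling (0.0634) and all 11 libraries in the fit (0.171). Cdk2 lost its call with RLE size factors (0.0511), total-count scaling (0.0914), no filter (0.0978) and all 11 libraries (0.0948). E2f1 stood at -0.10 ± 0.14 (adjusted p = 0.692). Of the tested endocycle, nucleotide supply and chromatin assembly genes, 6, 4 and 6 in number, 0 passed in edgeR. At an unadjusted p under 0.05 there were 2, 1 and 0 of them, and DESeq2 called 2, 1 and 0. Of 32 mitotic genes 1 fell, Mis12 (-0.91 ± 0.13, adjusted p = 0.0127), and 1 rose, Kmn1 (1.59 ± 0.28, adjusted p = 0.0207), so both shares were below those of all genes. The median log2 fold change of the 32 genes was nevertheless -0.83, against -0.04 for all genes. At an unadjusted p under 0.05, 3 of them were lower and 2 higher. Mis12 lost its call without mutant replicate 2 (0.0735) or 3 (0.0772), and Kmn1 without mutant replicate 2 (0.0560) or 3 (0.0740) or wild-type replicate 2 (0.0792) or 3 (0.0665). In wing discs 0 genes of these 6 lists passed in edgeR, while 1 mitotic gene, higher in the mutant, had an unadjusted p under 0.05 and 1 was called by DESeq2. Kmn1 stood at 20.1, 23.3 and 13.4 CPM in wild-type discs and at 47.2 and 46.9 CPM in mutant discs. Its exons lie to 14.8% under CG11699 on the other strand.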

How the data were processed

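RNA-seq was made from 11 libraries, read as 50 bp pairs. The submitters' processing notes name the build BDGP6, HTSeq 0.6.1, TopHat2 2.0.8b, BWA, Picard 1.119, FastQC 0.11.3 and Trim Galore 0.3.3. The sources used here do not state their order or the use of strand. The authors deposited raw counts per gene. Per the file headers, their comparison tables hold, for each gene, a p-value with its false discovery rate, a likelihood ratio score, a log2 mean CPM and a log2 fold change.

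Of 16034 entries, 15858 were kept and 176 without a name were left out, holding 0.000201% to 0.000607% of a library's counts. Positions of all 35 members equal those of the BDGP6 annotation, which gave exon lengths and overlaps. Counts were fitted with edgeR 4.0.16 in R 4.3.3 (TMM, filterByExpr with a minimum count of 10 and total of 15, robust quasi-likelihood F-test with legacy dispersions). Each tissue was fitted alone for genotype, and all 11 libraries together for tissue and interaction. Standard errors are the log2 fold change over the square root of F. P-values were adjusted over all genes tested, 9004, 9699 and 10835. The steps were tested on simulated data. Ratios to other libraries used a pseudocount of 0.1 CPM.

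Alternatives were RLE, upper-quartile and total-count scaling, other filters, DESeq2 1.42.0, other samples in the fit, and leaving out each library. Members and lists were chosen with earlier results of these data known. All members are named, as are up to 4 called genes per list and comparison by adjusted p (or, without a call, 2 of highest CPM), and Cap-D3. Exceptions are stated. From the lists, Orc3, Tipin, MCM-BP, SuUR and lat were not analysed here. Within groups, no pair of libraries was identical, and chi-square over its degrees of freedom ran from 21.0 to 1640 between them. Total counts ran from 52483185 to 157639957, and the lowest count of a member in a library was 58. For members with few counts, counting error can be as large as the spread between libraries. Psf1, at 84 to 99 counts in wild-type glands, is an example.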

Additional observations from a re-analysis of the deposited data

Results flagged for a closer look

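Psf1 differed between genotypes by unlike amounts in the gland and in the disc. Its genotype difference in salivary glands exceeded that in wing discs by 2.29 ± 0.26 on the log2 scale (edgeR interaction test, adjusted p = 0.00706). The gland values went from 2.28 ± 0.152 to 12.7 ± 1.08 CPM (SD, n = 3 and 3), and the disc values stood at 11 ± 2.02 (SD, n = 3) and 12.4 ± 1.25 CPM (SD, n = 2). The cause was not tested.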

How the results depend on the processing

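In wild type, the tissue difference of the 34 called genes kept its direction and call in 612 of 612 values over all alternatives and left-out libraries. In the mutant this held for 607 of 612 values. Both tallies include fits without a library of the genotype not compared, which could change only the shared scaling, filter and spread. Psf3 lost its call with RLE size factors and DESeq2, Cdc6 without either wing mutant replicate, and Cdc6 reversed to -0.62 with total-count scaling. In salivary glands 22 of 39 values of Psf1, Cdc6 and RPA2 kept their call, including all of Psf1. RPA2 lost it with upper-quartile scaling (adjusted p = 0.0521), total-count scaling (0.106), no filter (0.0647), a minimum of 1 CPM (0.0513) and all 11 libraries in the fit (0.0809). For these losses the cause was not tested.

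Counts of calls moved more. In salivary glands the members called higher were 1 with upper-quartile or total-count scaling and 4 with DESeq2, where the reported count was 2. Those called lower were 0 with upper-quartile and total-count scaling, no filter, the 1 CPM filter and the fit of all 11 libraries, and 2 with DESeq2, against 1. Of all genes, 294 were lower with no filter, against 446, and DESeq2 called 1092 higher and 999 lower, against 514 and 446. In wing discs 8 genes were lower with upper-quartile scaling, against 16. DESeq2 called 253 higher and 330 lower there, with 1 member lower, and the fit of all 11 libraries 75 and 65, against 31 and 16. With total-count scaling, 2211 genes were higher in the wild-type gland, against 3548, and 2057 in the mutant gland, against 3368, with 0 members. For the interaction, 30 genes were higher with upper-quartile scaling, against 59. DESeq2 called 292 higher, 3 of them members, and 321 lower, against 59 and 34.

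Leaving out each library in turn gave 1 to 2 members higher and 0 to 2 lower in salivary glands, and 186 to 489 genes higher and 103 to 581 lower. In wing discs 0 to 31 genes were higher and 0 to 14 lower, with 0 members. The mutant tissue comparison gave 0 to 1 members higher. The interaction gave 0 to 2 members higher, 2 to 81 genes higher and 5 to 183 lower. No paired analysis was possible because the labels give library numbers and no replicate number shared between groups.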
